A study of Setaria viridis with 26 samples.

Results

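*SvFul1* (Sevir.9G087300) and *SvFul3* (Sevir.2G393300) are paralogous AP1/FUL-like MADS-box genes of *Setaria viridis* (green foxtail), and they were followed here through the deposited co-expression network of wild-type inflorescence primordia. They were chosen by name, and each locus had exactly 1 node, so that 2 of 25298 network genes are described. The other AP1/FUL-like genes, *SvFul2* and *SvFul4*, complete a set of 4. The series itself holds 24 RNA-seq samples of pooled, hand-dissected primordia from plants of the A10.1 background grown in short days. The *ful2* mutant, which carries a chemically induced lesion in *SvFul2*, was sampled at 9-10, 15, and 21 days after sowing, and wild type was sampled at 8-9, 10-11, and 17 days, with 4 replicates in each of these 6 groups. A further 2 DNA samples served to map the mutation. No value below comes from *ful2* plants, because only wild-type primordia, those of this series and those of an earlier one, entered the authors' network. Of the wild-type libraries of this series, replicate 4 of the first stage and replicate 3 of the last were left out of it for their distance from the others. By the study's methods, most network samples came from the earlier series, and mostly from other ages than those sampled here. A difference between the series could therefore enter the weights, and it cannot be told apart from age. An edge weight is the topological overlap of a gene pair, a score that grows with the correlation of the pair and with the co-expressed genes they have in common. A weight is computed once from all network samples together. Replicate error is therefore missing, and no test can be made on it. Neither expression levels nor sequencing depth were analysed here, and the tissue could therefore not be checked against marker genes.

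MADS-box transcription factors bind DNA as dimers and assemble into larger complexes with other MADS-domain proteins, SEPALLATA proteins in particular. In Arabidopsis, AP1 and FUL promote the change from vegetative growth to flowering and give floral meristems their identity. In grasses the lineage was duplicated. *SvFul1* falls with wheat *VRN1* and rice *OsMADS14*, and *SvFul3* with rice *OsMADS18*, genes that promote flowering in those species.

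The start of each coding sequence is shown because it encodes the MADS domain, the DNA-binding part that the paralogs share most closely. The first 180 coding bases are printed 5′ to 3′, taken from the coding-sequence alignment of the study, with *SvFul2* for comparison, and capitals mark the 29 positions at which the 3 genes do not all have the same base.
*SvFul1*, chromosome 9: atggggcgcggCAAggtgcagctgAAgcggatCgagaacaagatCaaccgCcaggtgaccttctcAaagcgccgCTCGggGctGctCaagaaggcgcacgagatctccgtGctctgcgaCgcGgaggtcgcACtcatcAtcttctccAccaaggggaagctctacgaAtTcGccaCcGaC
*SvFul3*, chromosome 2: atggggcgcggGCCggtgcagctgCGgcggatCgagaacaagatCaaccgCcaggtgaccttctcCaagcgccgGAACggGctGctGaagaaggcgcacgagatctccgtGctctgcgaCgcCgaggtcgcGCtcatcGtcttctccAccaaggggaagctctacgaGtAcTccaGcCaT
*SvFul2*, chromosome 2: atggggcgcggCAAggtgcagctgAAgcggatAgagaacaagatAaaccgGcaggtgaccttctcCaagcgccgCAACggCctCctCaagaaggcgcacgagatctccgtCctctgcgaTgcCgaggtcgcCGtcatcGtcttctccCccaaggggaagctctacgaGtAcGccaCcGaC
In this window *SvFul1* and *SvFul3* differed at 20 bases, and 8 of the 60 codons gave another amino acid. *SvFul1* and *SvFul2* differed at 18 bases and 5 codons, and *SvFul3* and *SvFul2* at 21 bases and 7 codons. After these bases the genes were much less alike. Identity over aligned bases was 54.9% for *SvFul1* and *SvFul3*, 74.3% for *SvFul1* and *SvFul2*, and 56.6% for *SvFul3* and *SvFul2*.

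Near the 3′ end, all 3 genes carried the FUL motif, a short conserved stretch of FUL-like proteins, and these 18 bases are shown because they mark the genes as members of this lineage. Capitals again mark the 2 positions that are not the same in all 3. They lie in 2 of the 6 codons, and 1 of these codes for another amino acid in *SvFul2* than in *SvFul1* and *SvFul3*.
*SvFul1*, coding bases 715 to 732: ctgccTccatggatgCtc
*SvFul3*, coding bases 721 to 738: ctgccAccatggatgCtc
*SvFul2*, coding bases 793 to 810: ctgccGccatggatgAtc
The coding sequences, stop codon included, were 750 bases long in *SvFul1*, 759 in *SvFul3*, and 828 in *SvFul2*. Against rice, *SvFul1* was closest to *OsMADS14* (86.9% of aligned bases identical, against 76.8% for *OsMADS15* and 61.7% for *OsMADS18*). *SvFul3* was closest to *OsMADS18* (82.7%, against 63.1% for *OsMADS15* and 61.7% for *OsMADS14*). The longest identical run in the coding sequences of *SvFul1* and *SvFul3* was 39 bases, and that of *SvFul1* and *SvFul2* was 32 bases. How far reads of the paralogs were assigned to the wrong gene was not tested.

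Both genes had fewer edges within their module than the median gene of that module. *SvFul1* was in the cyan module and had 1601 listed edges, which reached 6.33% of all other network genes. *SvFul3* was in the brown module and had 2993 edges, which reached 11.8%. The median network gene had 3069 edges, and 18.7% of genes had fewer than *SvFul1* and 48.3% fewer than *SvFul3*. Among the paralogs, *SvFul2* had 1961 edges and *SvFul4* 5627. By the sum of its weights to genes of its own module, *SvFul1* ranked 427 of 621 cyan genes and *SvFul3* ranked 1760 of 2411 brown genes. *SvFul1* was linked to 45.8% of the cyan module, where the median cyan gene was linked to 64.2%. *SvFul3* was linked to 41.1% of the brown module, against 53.4% for the median brown gene.

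The edges of both genes were also light. The median weight was 0.0314 for *SvFul1* and 0.0317 for *SvFul3*, against 0.0412 over all 43548751 listed edges of the network. The middle 50% of edges lay between 0.0245 and 0.0433 for *SvFul1* and between 0.0251 and 0.0410 for *SvFul3*. The heaviest edge had a weight of 0.0949 for *SvFul1* and 0.108 for *SvFul3*, and the median gene's heaviest edge was 0.142. At the other end, the 3 lowest edges of *SvFul1* led to Sevir.3G385300, Sevir.7G009401, and Sevir.2G127100, and those of *SvFul3* to Sevir.1G257400, Sevir.4G258600, and Sevir.7G338500. All 6 had weights of 0.02 or 0.0201, just above the lowest weight in the deposited table, so that the value of an unlisted pair is unknown. The partners themselves were well connected. They had a median of 6850 edges for *SvFul1* and 6072 for *SvFul3*, and 92.7% and 87.6% of them had more edges than the median network gene. For the partners of the other paralogs this share was 84.2% for *SvFul2* and 55.9% for *SvFul4*.

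The edges of the 2 genes led to partly different modules. *SvFul1* had edges to 14 of the 26 modules and *SvFul3* to 21, some of them by a single edge. Modules with more than 10% of their genes linked numbered 5 for *SvFul1* and 6 for *SvFul3*. The turquoise module received the most edges of either gene, 866 from *SvFul1* and 1437 from *SvFul3*, and these covered 22.2% and 36.8% of its 3909 genes. In cyan, 284 genes were linked to *SvFul1* and 173 genes (27.9%) to *SvFul3*. In brown, 59 genes (2.45%) were linked to *SvFul1* and 990 to *SvFul3*. The midnightblue module showed the opposite pattern, with 156 of 548 genes (28.5%) linked to *SvFul1* and 9 (1.64%) linked to *SvFul3*. Likewise, grey60 had 64 of 376 genes (17.0%) linked to *SvFul1* and 5 linked to *SvFul3*. Lightgreen had 36 of 298 genes (12.1%) linked to *SvFul1* and 122 (40.9%) linked to *SvFul3*. Darkgrey and lightcyan had 21 of 91 (23.1%) and 43 of 503 genes (8.55%) linked to *SvFul3*, and none to *SvFul1*. The lightcyan share was below the 11.8% of all genes linked to *SvFul3*. The heaviest 100 edges of each gene were also split by module. For *SvFul1* they went to 40 turquoise, 40 cyan, 13 midnightblue, and 5 brown genes among others, and for *SvFul3* to 69 brown, 18 cyan, and 8 turquoise genes among others. *SvFul2*, which shares the brown module with *SvFul3*, was linked to 0.179% of turquoise and 3.70% of cyan genes.

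**Figure D1:**
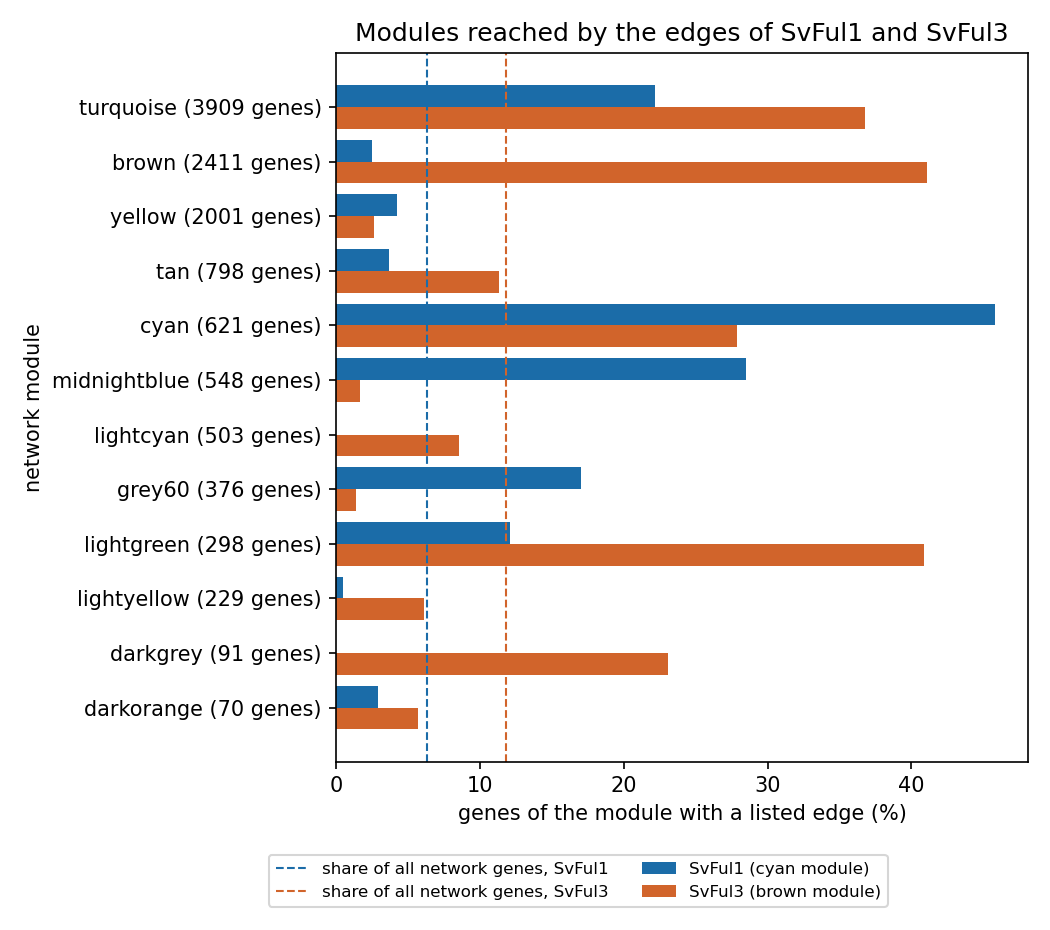
Share of the genes of each module with a listed edge to *SvFul1* (upper bar) or *SvFul3* (lower bar), in percent, for modules with more than 2% linked to either gene. Dashed lines mark the 6.33% and 11.8% of all network genes linked. Midnightblue and grey60 were reached mainly by *SvFul1*, and brown and lightgreen mainly by *SvFul3*.

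The 10 heaviest edges of *SvFul1* led to genes of the cyan, turquoise, red, and midnightblue modules. The heaviest was to Sevir.7G183600 (weight 0.0949), for which the tables used gave no name. The next was to Sevir.9G327100 (0.0942), whose best match in Arabidopsis is *HAT3* (AT3G60390), a homeodomain leucine zipper gene of leaf polarity and shade responses. Sevir.4G142400 (0.0939) encodes a DUF538 protein of unknown function. Sevir.3G242400 had a weight of 0.0927 and carries a flowering-related annotation. Sevir.5G330700 (0.0913) matches a nitrate transporter (AT1G52190), and Sevir.5G450300 (0.0872) matches a subunit of the NF-Y transcription factor (AT2G47810). Sevir.1G330000 (0.0861) matches a trehalose-6-phosphate phosphatase (AT1G35910), an enzyme that removes the sugar signal trehalose-6-phosphate. The remaining 3, Sevir.2G209800, Sevir.3G069700, and Sevir.1G187700, had weights of 0.0894, 0.0869, and 0.0862. Of these 10 genes, 9 were also linked to *SvFul3*, at weights of 0.0232 to 0.0522, and Sevir.1G187700 was not. None had a listed edge to *SvFul2*.

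Of the 10 heaviest edges of *SvFul3*, 8 led to brown genes. The first was to Sevir.9G426900 (0.108), which encodes an alpha-L-arabinofuranosidase, a cell wall enzyme. It was followed by Sevir.3G299800 (0.0978) and by Sevir.3G218600 (0.0961), whose Arabidopsis match *UPL4* (AT5G02880) is a ubiquitin ligase. Sevir.7G292500 had a weight of 0.0945, Sevir.3G060100 of 0.0920, and Sevir.9G339600 and the ankyrin-repeat gene Sevir.3G422800 of 0.0895 each. Sevir.5G447900, Sevir.1G224000, and Sevir.5G114400 closed the list at 0.0893, 0.0882, and 0.0878. Only Sevir.7G292500 and Sevir.3G422800 among these 10 were linked to *SvFul1*, at 0.0257 and 0.0317. Sevir.3G299800, Sevir.3G218600, Sevir.7G292500, and Sevir.3G060100 had edges to *SvFul2*, at 0.0237 to 0.0339. Of the 100 heaviest partners of *SvFul1*, 73 were linked to *SvFul3*, against 56.8% of all its partners. Of the 100 heaviest partners of *SvFul3*, 33 were linked to *SvFul1*, against 30.4% of all its partners.

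Transcription factor genes are here those annotated to the GO term for DNA-binding transcription factor activity, which misses some regulators. Nearest to *SvFul1* among them were the *HAT3* and NF-Y matches, Sevir.2G379700 (0.0831), which matches the homeobox gene *HB21* (AT2G18550), the AP2/ERF gene Sevir.1G275500 (0.0818), and Sevir.9G095600 (0.0798). All 5 were also linked to *SvFul3*, at lower weights of 0.0222 to 0.0549. Those nearest to *SvFul3* were Sevir.9G477500 (0.0677), *SvMads34* (0.0675), the MADS-box gene Sevir.9G565033 (0.0661), Sevir.9G433200 (0.0629), and Sevir.5G394500 (0.0620). Sevir.9G433200 matches *SWN* (AT4G02020), a histone methyltransferase of the Polycomb system, and Sevir.5G394500 matches *ABI5* (AT2G36270), a bZIP factor of abscisic acid signalling. The last 4 were also linked to *SvFul1*, at 0.0226 to 0.0566, and Sevir.9G477500 was not. The first gene with this annotation stood at rank 2 among the edges of *SvFul1* and at rank 72 among those of *SvFul3*.

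Among the genes annotated to flower development or to the transition to flowering, the heaviest edges of *SvFul1* were to Sevir.3G242400 (0.0927), Sevir.1G257800 (0.0834), Sevir.8G036200 (0.0696), Sevir.5G246000 (0.0664), and Sevir.2G336300 (0.0642). Sevir.1G257800 resembles the trihelix factor *GT2* and lacks the transcription factor annotation, Sevir.8G036200 carries a B3 DNA-binding domain, and Sevir.2G336300 matches *SPL5* (AT3G15270), an SBP-box gene that in Arabidopsis acts in the age pathway of flowering. The first 4 of these were linked to *SvFul3* at 0.0247 to 0.0437, and the *SPL5* match was not linked to it. The heaviest edges of *SvFul3* in this class were to Sevir.8G255750 (0.0752), Sevir.4G301000 (0.0738), Sevir.6G167500 (0.0727), Sevir.1G242500 (0.0690), and *SvMads34* (0.0675). Sevir.1G242500 matches *SUVR2* (AT5G43990), which in Arabidopsis acts in gene silencing. Sevir.4G301000 and Sevir.6G167500 had no listed edge to *SvFul1*, and the other 3 had weights of 0.0386 to 0.0613 to it.

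No pair among *SvFul1*, *SvFul2*, *SvFul3*, and *SvFul4* had a listed edge. Other MADS-box genes were nevertheless frequent partners. With MADS-box genes defined by the protein domains in the deposited annotation, 34 others were in the network for each gene. *SvFul1* was linked to 10 of them (29.4%, against 6.33% of all genes) and *SvFul3* to 9 (26.5%, against 11.8%), and 6 were linked to both. MADS-box genes of the network had a median of 3591 edges, somewhat more than the 3069 of all genes. This list was drawn up after the edge table had been seen.

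*SvMads34*, a SEPALLATA-like gene whose rice ortholog shapes the panicle, was linked to *SvFul1* at 0.0549 and to *SvFul3* at 0.0675. *SvMads56*, a *SOC1*-like gene of the flowering pathway, had a weight of 0.0634 to *SvFul1* and 0.0430 to *SvFul3*, and *SvMads37.1* had weights of 0.0314 and 0.0381. Sevir.9G565033 (0.0566 and 0.0661), Sevir.5G034800 (0.0392 and 0.0436), and Sevir.1G278500 (0.0292 and 0.0444) were the other shared MADS-box partners, given in the same order. Sevir.1G278500 matches Arabidopsis *AGL6* (AT2G45650). A further 4 were linked to *SvFul1* and not to *SvFul3*. These were Sevir.9G565200 (0.0449), Sevir.5G305800 (0.0399), the SEPALLATA-like *SvMads5* (0.0345), and Sevir.5G410100 (0.0202), of which all but *SvMads5* are cyan genes. Another 3 were linked to *SvFul3* and not to *SvFul1*. They were Sevir.7G221900 and Sevir.9G494301 (0.0234 each) and Sevir.2G277000 (0.0222), which matches *SEP3* (AT1G24260). Matches of the organ identity genes *AP3* (Sevir.4G289400), *PI* (Sevir.3G242100), and *AG* (Sevir.5G141300) and of the flowering repressor *SVP* (Sevir.1G335300) had no listed edge to either gene. *SvMads34* and *SvMads56* are themselves well connected, with 6402 and 4804 edges. Of the other paralogs, *SvFul2* was linked to 1 of 34 MADS-box genes, *SvMads34*, at 0.0244, and to 7.75% of all genes. *SvFul4* was linked to 7 of 34, among them *SvMads51* at 0.0667, a share near the 22.2% of all genes linked to it. None of these 7 had a listed edge to *SvFul1* or *SvFul3*, and *SvFul4* shared no neighbour of any kind with these 2 genes.

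**Figure D2:**
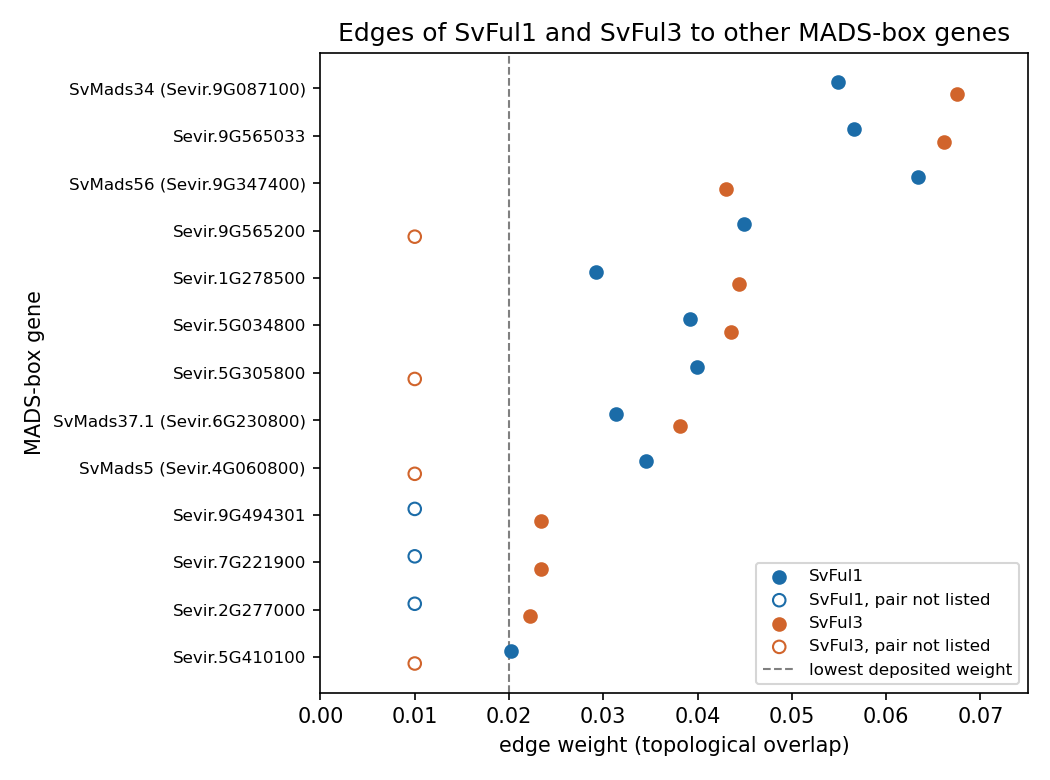
Weight of the edge from each of 13 MADS-box genes to *SvFul1* and *SvFul3*. Filled points are listed weights, and open points left of the dashed line stand for pairs that were not listed and whose weight is unknown. Of the 13 genes, 6 had edges to both genes, with weights between 0.0292 and 0.0675.

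Of 23 further genes that the study names by identifier, 6 (26.1%, against 6.33% of all genes) were linked to *SvFul1* and 6 (26.1%, against 11.8%) to *SvFul3*, and 5 were linked to both. The study named many of these 23 genes from the same data, so their shares are no independent result. Of the links, 4 of *SvFul1* and 3 of *SvFul3* were to MADS-box genes already counted above. Beside those, both genes were linked to the florigen-like gene *SvFtl1*, whose Arabidopsis match is *FT*, at 0.0233 for *SvFul1* and 0.0202 for *SvFul3*. *SvMtf1*, which matches *MFT* of the same family, had a weight of 0.0601 to *SvFul1*, its rank 134 edge, and 0.0222 to *SvFul3*, its rank 2651 edge. *SvKn1*, a homeobox gene that maintains meristems, had no listed edge to *SvFul1* and a weight of 0.0435 to *SvFul3*, close to its weight of 0.0436 to *SvFul2*. The florigen partner *SvFd1*, the *TFL1*-like *SvZcn2*, and *SvMads51* were linked to neither gene. Neither were the meristem regulators *SvFea4*, *SvRa2*, *SvIds1*, *SvSid1*, and *SvD3*. The organ polarity genes *SvYab15* and *SvMwp1*, the homologs of *Roc5* (Sevir.5G077800) and *PHABULOSA* (Sevir.9G157300), the bHLH gene Sevir.2G248500, and the bZIP gene Sevir.3G396500 had no listed edge to them either. *SvFea4*, *SvRa2*, and Sevir.3G396500 did have edges to *SvFul2*, at 0.0279, 0.0239, and 0.0306.

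Although their own pair was not listed, *SvFul1* and *SvFul3* shared 910 network neighbours. These made up 56.8% of the partners of *SvFul1*, against 11.8% of all genes linked to *SvFul3*. They made up 30.4% of the partners of *SvFul3*, against 6.33% of all genes linked to *SvFul1*. The shared parts fell to 18.5% and 11.3% among edges of at least 0.04, and to 11.2% of each among the 500 heaviest edges. The share of all genes linked fell as well. At 0.04, 496 of 25297 other genes were linked to *SvFul1* and 815 to *SvFul3*, in place of 1601 and 2993. The lower percentages therefore do not by themselves show a weaker overlap among heavy edges. *SvFul1* shared 59 neighbours with *SvFul2*, its closer relative in sequence. These were 3.69% of the partners of *SvFul1*, against 7.75% of all genes linked to *SvFul2*. They were 3.01% of the partners of *SvFul2*, against 6.33% of all genes linked to *SvFul1*. *SvFul3* shared 485 with *SvFul2*, which were 16.2% of the partners of *SvFul3* (against 7.75%) and 24.7% of those of *SvFul2* (against 11.8%). Neither *SvFul1* nor *SvFul3* shared any neighbour with *SvFul4*, to which 22.2% of all genes were linked. Many genes of the network shared as many neighbours as *SvFul1* and *SvFul3* did. In all, 6010 genes had at least 910 neighbours in common with *SvFul1*, and 26.3% of those had a listed edge to it. For *SvFul3* the number was 8595, with 33.6% linked. The median gene shared 14 neighbours with *SvFul1* and 235 with *SvFul3*. Among the partners of *SvFul1* 95.2% of pairs were listed, and among those of *SvFul3* 69.4%, against 13.6% of all gene pairs. Topological overlap itself grows with shared co-expressed genes, so partners of 1 gene tend to be linked to one another. The density among partners of other genes was not measured.

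Of the 910 shared neighbours, 616 were turquoise, 154 cyan, and 54 brown. The 691 genes linked only to *SvFul1* included 250 turquoise, 147 midnightblue, 130 cyan, and 61 grey60 genes. The 2083 linked only to *SvFul3* included 936 brown, 821 turquoise, 94 lightgreen, and 79 tan genes. Over the 910 genes the 2 weights had a Pearson's r of -0.0259 and a Spearman's rho of -0.0147, as a description across genes that come from the same samples and were kept only where both weights were above the lower limit. These coefficients therefore say nothing of genes outside that set. The edge to *SvFul1* was the heavier for 414 genes and the edge to *SvFul3* for 496.

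**Figure D3:**
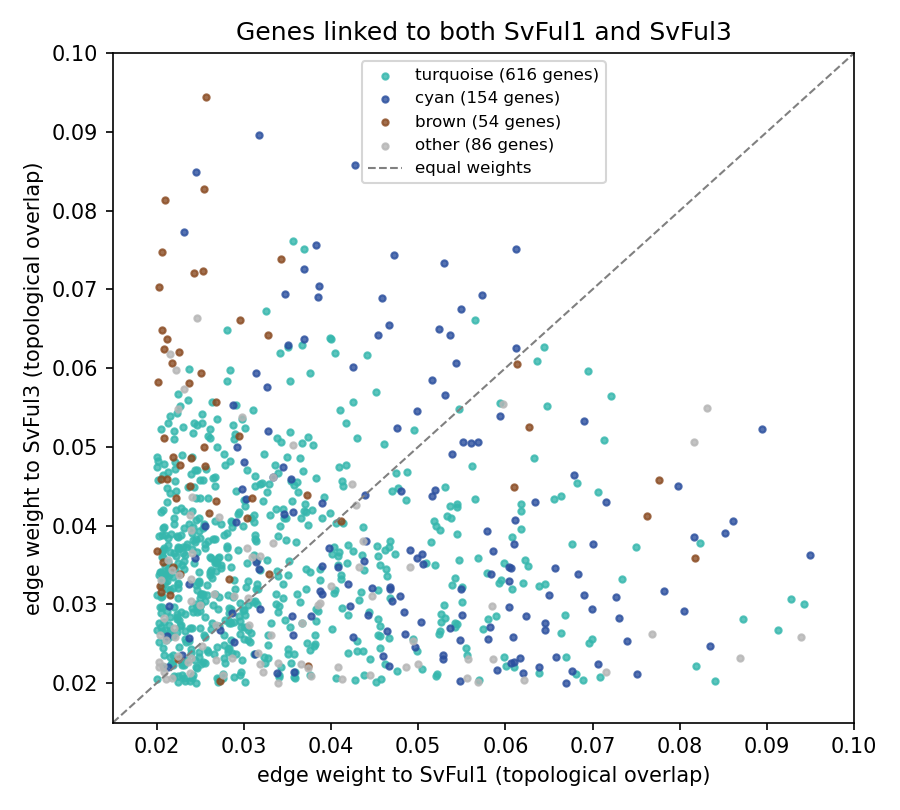
Each point is 1 of the 910 genes linked to both *SvFul1* and *SvFul3*, placed by the 2 edge weights and coloured by module. The points fill the corner near the lowest deposited weight and spread along each axis, with few genes heavy on both (92 genes had both weights at 0.04 or more).

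The 10 genes with the highest smaller weight to the pair were led by Sevir.1G030000 (0.0644 to *SvFul1* and 0.0627 to *SvFul3*), Sevir.8G255750 (0.0613 and 0.0752), and Sevir.9G133900 (0.0612 and 0.0626), which encodes a histidine acid phosphatase-type protein. Next came Sevir.8G255700 (0.0636 and 0.0609) and Sevir.5G357900 (0.0613 and 0.0605), whose Arabidopsis match *SCAB1* (AT2G26770) binds actin. The homeobox gene Sevir.9G138100 had weights of 0.0695 and 0.0596, and Sevir.6G142000 of 0.0573 and 0.0693. The MADS-box gene Sevir.9G565033 described above was also in this set, as were Sevir.4G285500 (0.0721 and 0.0564) and Sevir.9G086800 (0.0594 and 0.0556). Only Sevir.6G142000 among the 10 had a listed edge to *SvFul2*, at 0.0201.

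The annotated functions of the partners were then counted. Of 35 gene lists made from GO terms, 22 were linked to *SvFul1* at a higher share than the 6.33% of all genes, and 14 to *SvFul3* at a higher share than 11.8%. Of these, 15 lists for *SvFul1* and 3 for *SvFul3* were above 1.5 times the share of all genes, and the others lay nearer to it. Transcription factor genes were linked to *SvFul1* in 97 of 944 cases (10.3%) and to *SvFul3* in 90 (9.53%). Their share was above that of all genes for *SvFul1* and below it for *SvFul3*. For *SvFul1* the highest shares were 7 of 24 genes of trehalose biosynthesis (29.2%), 21 of 98 nucleosome genes (21.4%), and 19 of 112 genes of flower morphogenesis (17.0%). *SvFul3* was linked to 4 (16.7%), 8 (8.16%), and 19 (17.0%) of the same lists. Its own highest shares were 8 of 37 genes that regulate the timing of the vegetative to reproductive transition (21.6%), 6 of 32 for the specification of floral organ identity (18.8%), and 15 of 82 for stem cell development (18.3%). *SvFul1* was linked to 6 (16.2%), 2 (6.25%), and 7 (8.54%) of these.

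Of the 480 genes of the vegetative to reproductive phase transition of the meristem, the broadest flowering term, 24 (5.0%) were linked to *SvFul1* and 48 (10.0%) to *SvFul3*. Regulation of flower development gave 16 of 343 (4.66%) and 38 of 344 (11.0%). In these 2 broad lists the shares lay somewhat below the background, and those of *SvFul3* were near its 11.8%. Meristem initiation, above the background for each gene, gave 25 of 166 (15.1%) for *SvFul1* and 26 (15.7%) for *SvFul3*, and adaxial/abaxial polarity, likewise above it, gave 18 of 120 (15.0%) and 19 (15.8%). Of the 6 hormone lists, 4 were above the background for *SvFul1*, at 9.43% to 13.5%, and 0 for *SvFul3*. Auxin-activated signalling had 27 of 263 genes linked to *SvFul1* (10.3%) and 21 to *SvFul3* (7.98%), and gibberellin signalling had 15 of 111 (13.5%) and 8 (7.21%). Regulation of the cell cycle had 4 of 109 genes linked to *SvFul1* (3.67%) and 18 to *SvFul3* (16.5%). DNA methylation had 6 of 176 (3.41%) and 22 (12.5%), the second share being close to the background. The cytosolic large ribosomal subunit was below the background for each gene, with 2 of 143 (1.40%) and 14 (9.79%), although ribosomal genes were otherwise well connected, with a median of 5726 edges.

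**Figure D4:**
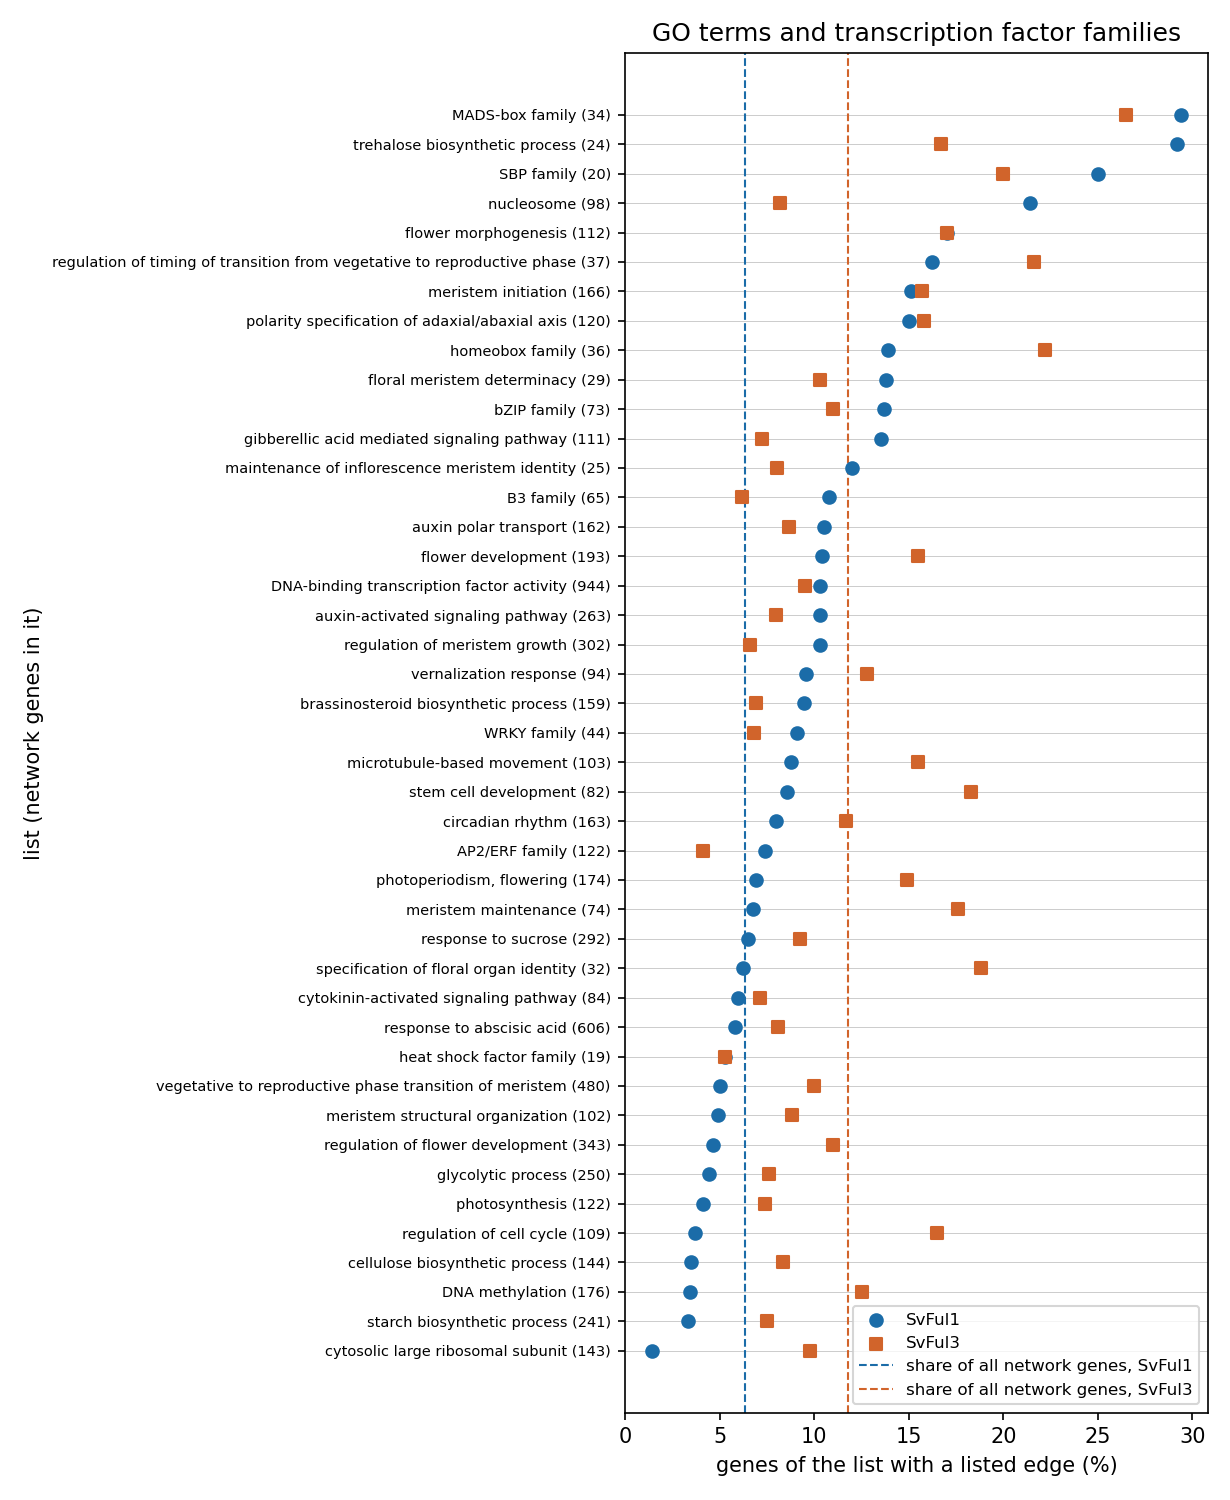
Percent of the genes of each list with a listed edge to *SvFul1* (circles) and *SvFul3* (squares), with the number of network genes in parentheses. Dashed lines mark 6.33% and 11.8%, the shares of all network genes. The lists are ordered by the *SvFul1* share, which ran between 1.40% for the large ribosomal subunit and 29.4% for MADS-box genes.

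Other transcription factor families were counted by protein domain in the same way as the MADS-box genes. These lists are incomplete, since the *HAT3* match Sevir.9G327100 and the *PHABULOSA* homolog Sevir.9G157300 are not in the homeobox list. SBP-box genes, the family of *SPL5*, had 5 of 20 members linked to *SvFul1* (25%) and 4 to *SvFul3* (20%), with 1 gene linked to both. Homeobox genes had 5 of 36 (13.9%) linked to *SvFul1* and 8 (22.2%) to *SvFul3*. bZIP genes had 10 of 73 (13.7%) and 8 (11.0%), and B3 genes had 7 of 65 (10.8%) and 4 (6.15%). AP2/ERF genes had 9 of 122 (7.38%) linked to *SvFul1* and 5 (4.1%) to *SvFul3*. WRKY genes had 4 of 44 (9.09%) and 3 (6.82%), and heat shock factors had 1 of 19 (5.26%) for each gene. The share of all genes was 6.33% for *SvFul1*, and every family here but the heat shock factors exceeded it, AP2/ERF genes only slightly. For *SvFul3* it was 11.8%, and of these families only SBP-box and homeobox genes exceeded it.

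The deposited annotation gave *SvFul1* 26 GO terms and *SvFul3* 18, of which 14 were in common and 13 were also assigned to *SvFul2* and *SvFul4*. Regulation of flower development was assigned to *SvFul1* and not to *SvFul3*, and specification of floral organ identity was assigned to both. The best Arabidopsis match recorded for *SvFul1* was *AP1* (AT1G69120), and none was recorded for *SvFul3*.

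*SvMads34* lies close to *SvFul1* on chromosome 9 by its locus number. Among 18 network genes with a locus number within 1000 of that of *SvFul1*, 2 were linked to it (against 6.33% of all genes), *SvMads34* (0.0549) and Sevir.9G086800 (0.0594). Of the same 18 genes, 7 were linked to *SvFul3* (against 11.8% of all genes), which is on chromosome 2. The weights were 0.0675 for *SvMads34*, 0.0556 for Sevir.9G086800, and 0.0488 for Sevir.9G087900. The rest had weights of 0.0202 to 0.0263, near the lowest weight listed. None of the 11 network genes beside *SvFul3* had a listed edge to *SvFul3* or to *SvFul1*. With 11.8% and 6.33% of all genes linked, 11 genes are too few to set this apart from the background.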

How the data were processed

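RNA-seq reads of pooled primordia were trimmed with cutadapt and quantified with Salmon 0.13.0 on version 2.1 transcripts by the authors, who transformed the counts and built a signed WGCNA network with biweight midcorrelations. The edge weight that the authors deposited is a score (topological overlap), listed down to a minimum of 0.02, so weaker links are lost. Module names and GO terms (GOMAP) are the authors' own other columns. No column of the tables holds values of a single sample (0 columns), and the depth of single samples was not analysed here. All 3 tables were read with Python 3.11.15, biopython 1.88, pandas 2.3.3, numpy 2.4.6, pyarrow 21.0.0, and scipy 1.17.1, and drawn with matplotlib 3.10.9.

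Edges, sums of weights, and shared neighbours were counted and checked on simulated networks. GO terms were used as assigned, and 678 assignments marked NOT were left out. Every network gene had a term. Families were taken from domain identifiers in the annotation evidence, and these incomplete lists were made after the tables were seen. Names come from the study's tables and from Arabidopsis best matches. The RefSeq table could not be joined to these loci, so no MADS-box list was taken from it and no coordinates are given.

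Genes were named by a rule: both genes; 25 of the genes that the study names by identifier, with others it names left out; the 10 heaviest edges of each; the 5 heaviest to transcription factors and to flowering genes (phase transition of the meristem, flower development, and its regulation); the 10 genes with the highest smaller weight to both; and the 3 lowest edges of each. MADS-box genes and genes beside *SvFul1* outside this rule were named after their values were seen. The members and lists were chosen with earlier results of these data known. No comparison of *ful2* with wild type could be made from these tables. The alternatives were minimum weights of 0.03 and 0.04, other measures of connectivity, other backgrounds, and the 500 heaviest edges.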

Additional observations from a re-analysis of the deposited data

How the results depend on the processing

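No paired analysis was possible because values of single samples were not among the tables used, and for the same reason no replicate could be left out. With a minimum weight of 0.03, *SvFul1* kept 868 edges, *SvFul3* kept 1672, and the pair shared 316 neighbours, while *SvFul1* and *SvFul2* shared 6. At 0.04 these numbers were 496, 815, 92, and 0, and 3 of the 23 genes named by the study were linked to *SvFul1* and 3 to *SvFul3*, in place of 6 each. Among the 500 heaviest edges of each gene, 56 were shared by *SvFul1* and *SvFul3*. Within the own module alone, 2 of 2 named genes were linked to *SvFul1* and 0 of 1 to *SvFul3*. Numbers of edges and of named genes fall because fewer are counted. The shared part fell further than the edges, to 36.4% of the edges of *SvFul1* and 18.9% of those of *SvFul3* at 0.03. A shared neighbour has to pass the minimum on both of its edges. The share of all genes linked fell too, to 868 of 25297 for *SvFul1* and 1672 for *SvFul3* at 0.03. The lower shared part therefore does not by itself show a weaker overlap. The rank of *SvFul1* in cyan (411 to 448) and of *SvFul3* in brown (1584 to 1808) and the number of GO lists above the background (22 to 29 for *SvFul1*, 14 to 20 for *SvFul3*) stayed within 1.5 times of the values reported, with 1 exception for the lists of *SvFul3*. Counting only lists above 1.5 times the share of all genes, a margin chosen after seeing the data, left 15 for *SvFul1* and, as that exception, 3 for *SvFul3*. Limiting the background to annotated genes changed nothing, since all 25298 genes had a GO term. For MADS-box genes the minimum of 0.04 was an alternative chosen after seeing the data. At that weight 4 of 34 were linked to *SvFul1* and 5 of 34 to *SvFul3*, against 496 and 815 of all 25297 other genes. The number of network samples limits the precision of every weight, and that error was not measured.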
